A study of Mus musculus with 30 samples.

Results

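The cytochrome P450s, retinoid-converting enzymes and conjugating enzymes of the mouse stomach were followed through 10 sorted cell populations. Members were the genes whose symbols begin with Cyp, Aldh, Adh or Rdh followed by a digit, with Gsta, Gstk, Gstm, Gsto, Gstp or Gstt, or with Ugt1 or Ugt2. Of 152 matching symbols, 112 reached 10 normalized counts in at least 3 of the 30 libraries, out of 17202 named genes that passed the same level filter. The kept members were 15 of 19 retinoid enzymes, 9 of 9 sterol, steroid and bile acid P450s, 37 of 66 other P450s, 16 of 17 other aldehyde dehydrogenases, 3 of 5 other alcohol and retinol dehydrogenases, 22 of 22 glutathione transferases and 10 of 14 UDP-glucuronosyltransferases. Just inside the filter were Cyp2j7, Ugt2b36 and Cyp1b1, each at 10 in 3 libraries, and just outside it Cyp2a4, Cyp2b19 and Cyp2g1, each in 2.

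Epithelial cells were sorted by flow cytometry from 2 reporter lines, and bulk RNA-seq was run on 3 libraries of each population. From Lgr5-DTR-GFP mice, in which GFP and a diphtheria toxin receptor report the stem cell gene Lgr5, came antrum Lgr5-positive and Lgr5-negative cells, and from the corpus EpCAM-high Lgr5-positive, EpCAM-low Lgr5-positive and Lgr5-negative cells. From Sox2-Tomato mice, in which a red protein reports the transcription factor Sox2, came 3 antrum populations, sorted as Sox2-high, Sox2-low or negative for the reporter, and corpus Sox2-positive and Sox2-negative cells. Every genotype label reads WT, no toxin or other treatment is named, while the sources used here do not give strain, sex, age or the number of mice per sort.

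These enzymes handle fat-soluble small molecules. Alcohol and retinol dehydrogenases oxidise retinol to retinaldehyde, the Aldh1a enzymes oxidise retinaldehyde to retinoic acid, and enzymes of the Cyp26 family break retinoic acid down. Alcohol dehydrogenase and the mitochondrial Aldh2 also clear ethanol and the acetaldehyde made from it. Cytochrome P450s are haem oxygenases of the endoplasmic reticulum and mitochondria that hydroxylate sterols, steroids, fatty acids and foreign compounds, and glutathione transferases and UDP-glucuronosyltransferases attach glutathione or glucuronic acid to reactive or oxidised molecules. The stomach lining meets swallowed alcohol and food toxins before the liver does, and Adh7 and Aldh3a1 are known as enzymes rich in the stomach.

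The libraries held 18672634 to 62344916 reads, and the members took 0.13% to 1.791% of them. Values are read counts divided by a size factor for each library, called normalized counts below, and antrum and corpus were scaled in separate tables, so a level set beside one of the other tissue carries that difference. Of the sorted genes, Lgr5 ranged from 2767 to 5727 in antrum Lgr5-positive against 66.3 to 321.2 in antrum Lgr5-negative libraries, and in the corpus from 2910 to 6537 in EpCAM-high and 1299 to 3135 in EpCAM-low, against 67.26 to 110 in Lgr5-negative libraries. Epcam ranged from 28010 to 38870 in EpCAM-high against 7089 to 9133 in EpCAM-low libraries, and Sox2 from 1355 to 3628 in antrum Sox2-high against 374.3 to 708.9 in Sox2-low libraries, whose range overlapped the 36.57 to 441.9 of antrum Sox2-negative libraries. In the corpus Sox2 ranged from 268.9 to 383.3 in Sox2-positive against 28.16 to 72.64 in Sox2-negative libraries. The 10 most abundant genes took 81.63% ± 6.212 (SD, n = 3) of the reads in EpCAM-low libraries, against 42.14% ± 3.987 in corpus Lgr5-negative libraries. Replicates of a population were sorted on different days, and the number of mice per sort is not stated. The p-values therefore measure the spread between these sorts, in which mouse, day and technical differences cannot be told apart. With 3 libraries against 3, an exact permutation test of a single gene cannot give a p below 0.1, so calls below come from limma fits across all genes, at a Benjamini-Hochberg adjusted p of 0.05.

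Per kilobase of transcript, glutathione transferases led in most populations. Gsta4, an alpha-class enzyme that conjugates products of lipid peroxidation, stood at 57300 normalized counts per kilobase in antrum Sox2-low and 55500 in antrum Lgr5-negative cells, where it was the highest member. Gsto1, an omega-class thiol transferase, led in corpus Lgr5-negative cells at 60300 per kilobase. EpCAM-high Lgr5-positive cells were led instead by the alcohol dehydrogenase Adh1, at 77300 per kilobase against 4560 in EpCAM-low and 8000 in Lgr5-negative cells. Cyp26b1, which breaks down retinoic acid, and Cyp1a1, a target of the aryl hydrocarbon receptor, were close to absent: Cyp26b1 had group means of at most 2.341 normalized counts, and Cyp1a1 of at most 2.881. Aldh1a2, a retinaldehyde dehydrogenase best known from stroma, averaged at most 11.63 ± 3.439 (SD, n = 3), in corpus Sox2-positive cells.

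In the corpus Lgr5 sort, the EpCAM-high fraction was higher than both other populations in Adh1 and Aldh2, which oxidise ethanol and acetaldehyde, and in Adh6.ps1 and Aldh3a2, while the EpCAM-low fraction was higher than both in Rdh7, Aldh1a1, Cyp4v3 and Aldh7a1. Between EpCAM-high and EpCAM-low cells, 37 of 92 tested members passed the test, 15 higher and 22 lower in EpCAM-high, or 40.2% of members against 31.8% of all genes tested (17.5% higher and 14.3% lower), and 38 passed with sort day as a block, against 35.4% of all genes. EpCAM-high differed from Lgr5-negative cells in 22 of 92 members, 12 higher and 10 lower, or 23.9% against 21.1% of all genes (10.7% higher and 10.5% lower), and 28 passed with the block, 15 higher and 13 lower, against 24.0%. EpCAM-low differed from Lgr5-negative cells in 37 of 92, 20 higher and 17 lower, or 40.2% against 30.9% of all genes (12.9% higher and 18.0% lower), and 36 passed with the block, against 34.0%. The count of 22 for EpCAM-high against Lgr5-negative cells fell to 14 without EpCAM-high replicate 2, 14 without Lgr5-negative replicate 1, 10 without replicate 2 and 12 without replicate 3, and 10 of the 22 were called in every fit. Of the called members, 1 of 37, 2 of 22 and 1 of 37, in the order of these comparisons, had passed the level filter only through the group where they were higher (Cyp11a1 in EpCAM-high and Rdh16 in Lgr5-negative cells), so that their calls lend no support. This tally takes members whose other libraries were all under 10. Cyp2d10 in EpCAM-high cells, and Aldh1a3 there over EpCAM-low cells, also had too few other libraries at 10 to pass. Those calls lend no support either.

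These directions are relative to the bulk of genes. Scaled by total reads instead, an alternative chosen after seeing the data, the median of all genes moved by log2 to 1.99 from 0.07 for EpCAM-high against EpCAM-low, and to -2.09 from -0.19 for EpCAM-low against Lgr5-negative cells. Called members then split into 61 higher and 2 lower for EpCAM-high against EpCAM-low, and 2 higher and 67 lower for EpCAM-low against Lgr5-negative cells. Of all genes, 76.9% and 81.9% passed in these comparisons under that scaling, and 16.6% for EpCAM-high against Lgr5-negative cells. Every count under total-read scaling in the corpus Lgr5 sort below stands beside the share for its comparison. Of the 37 members called in each of these comparisons, 13 changed sign for EpCAM-high against EpCAM-low and 11 for EpCAM-low against Lgr5-negative cells, while 0 of 22 did for EpCAM-high against Lgr5-negative cells. Members that kept their direction and call under both scalings are named as such below. This scaling moved genes up for EpCAM-high against EpCAM-low and down for EpCAM-low against Lgr5-negative cells. Members already moving that way could not be reversed by it, so for them a kept call is no further support.

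**Figure D1:**
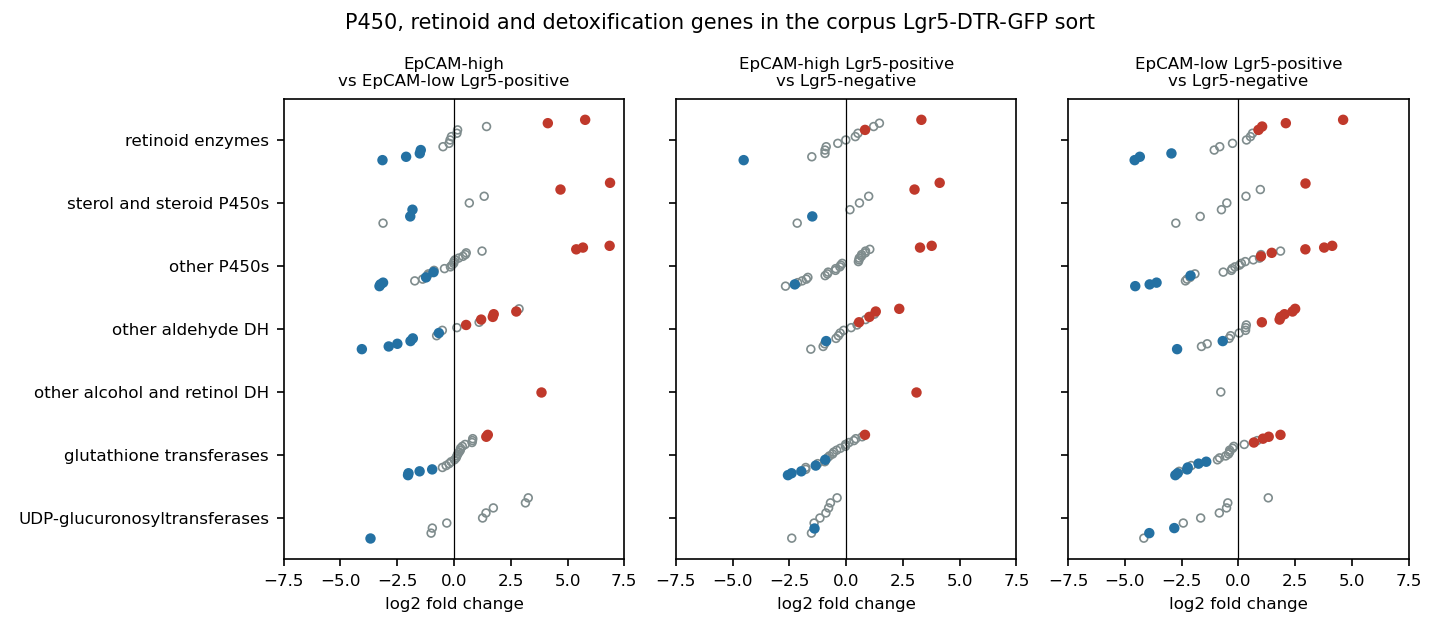
Log2 fold change of each tested member in the 3 comparisons of the corpus Lgr5 sort, by family, with filled red points for members called higher, filled blue points for members called lower and open points for members that did not pass. Called members of most families lie on both sides of 0. Under total-read scaling the EpCAM-high against EpCAM-low calls were instead 61 higher and 2 lower, and the EpCAM-low against Lgr5-negative calls 2 higher and 67 lower. Of all genes, 76.9% and 81.9% passed there.

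Cell type markers moved with these groups. All 6 tuft cell markers (Dclk1, Trpm5, Gfi1b, Pou2f3, Ptgs1 and Plcb2) rose in EpCAM-high against both other corpus populations, and their summed normalized counts ranged from 137900 to 256600 in EpCAM-high and 1168 to 9232 in EpCAM-low, against 9358 to 17960 in Lgr5-negative libraries. The 3 chief cell markers in the table (Pgc, Gif and Bhlha15) summed to 5102000 to 8089000 in EpCAM-high and 40780000 to 91650000 in EpCAM-low, against 7797000 to 10420000 in Lgr5-negative libraries. The 4 parietal markers summed to 41860 to 647700 in EpCAM-high and 821900 to 2190000 in EpCAM-low, against 58230 to 78840 in Lgr5-negative libraries. The 7 enteroendocrine markers summed to 7581 to 38500 in EpCAM-high and 8801 to 14180 in EpCAM-low, against 225800 to 408000 in Lgr5-negative libraries, with Gip at 0 in all 3 groups and Tph1 at 0 in EpCAM-low. The 7 leukocyte markers summed to 1541 to 3967 in EpCAM-high and 43.72 to 213.7 in EpCAM-low, against 442.4 to 611.2 in Lgr5-negative libraries, the 5 mucous neck or deep gland markers to 25890 to 38690 and 8258 to 20960, against 96960 to 150600, and the fibroblast and pericyte markers to 1.215 to 4.291 and 78.08 to 217.2, against 6.804 to 15.29. The 2 endothelium markers found summed to 1426 to 2531 in EpCAM-high and 24.52 to 124.5 in EpCAM-low, against 39.79 to 137.6 in Lgr5-negative libraries. Pit markers summed to 254800 to 754800 and 83150 to 319200, against 396700 to 1332000, and liver and pancreas acinar markers to 1739 to 3092 and 1590 to 3217, against 19800 to 32730. The part of these markers in the enzyme differences was not tested, and in bulk libraries fewer cells of a type and less RNA per cell cannot be told apart.

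Adh1, the alcohol dehydrogenase of broad substrate range that oxidises ethanol and retinol, had 84940, 120200 and 140200 normalized counts in EpCAM-high libraries, and 10120, 4774 and 5484 in EpCAM-low, against 15200, 7168 and 13410 in Lgr5-negative libraries. The EpCAM-high libraries lay above all 6 others. Adh1 rose by 4.13 ± 0.36 on the log2 scale (SE, limma adjusted p = 7.145e-05) over EpCAM-low cells and by 3.31 ± 0.36 over Lgr5-negative cells (limma adjusted p = 0.0006372). Both calls held without any single library and under total-read scaling, which could not have reversed the one over EpCAM-low cells. Adh7, its neighbour on chromosome 3 and the alcohol dehydrogenase known from upper digestive epithelium, had 9048, 3430 and 1502 in EpCAM-high and 1221, 2175 and 886.9 in EpCAM-low, against 10240, 11960 and 8847 in Lgr5-negative libraries. Its EpCAM-high libraries spread from the level of the Lgr5-negative group to that of the EpCAM-low group. Adh7 fell in EpCAM-low against Lgr5-negative cells (log2 -2.95 ± 0.56, limma adjusted p = 0.00464). For EpCAM-high it gave log2 1.44 over EpCAM-low and -1.51 over Lgr5-negative cells, with limma adjusted p = 0.07754 and 0.08586, and with sort day as a block 0.03556 and 0.03929. The following sequences show 250 bases before the annotated start of these neighbours, which lie in the same orientation and differ in their pattern across the sort (RefSeq, GRCm38.p6; Adh1 at chr3:138277335-138277584, plus strand; Adh7 at chr3:138217523-138217772, plus strand). Capitals mark matches on either strand to the antioxidant response element core TGACNNNGC, the aryl hydrocarbon response element core GCGTG, the nuclear receptor half-site AGGTCA or the TATA box TATAAA.
Adh1: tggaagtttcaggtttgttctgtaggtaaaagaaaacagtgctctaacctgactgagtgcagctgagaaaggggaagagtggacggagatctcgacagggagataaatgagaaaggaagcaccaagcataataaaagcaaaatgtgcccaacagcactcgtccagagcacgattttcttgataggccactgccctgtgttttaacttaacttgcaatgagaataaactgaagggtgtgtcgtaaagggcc
Adh7: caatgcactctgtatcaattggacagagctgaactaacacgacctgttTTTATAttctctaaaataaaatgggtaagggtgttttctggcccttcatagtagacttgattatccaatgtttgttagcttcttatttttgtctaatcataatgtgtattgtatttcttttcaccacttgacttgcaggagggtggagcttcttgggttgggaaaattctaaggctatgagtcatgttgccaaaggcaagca
The Adh1 window held none of the 4 motifs, and the Adh7 window held 1 TATA box on the opposite strand. Over the windows of all 27025 genes, 14.3% held TATAAA, 15.8% AGGTCA, 30.9% GCGTG and 11.5% TGACNNNGC, and over the windows of 86 members 19.8%, 16.3%, 31.4% and 10.5% in that order of motifs.

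Aldh2, the mitochondrial enzyme that clears acetaldehyde, moved with Adh1. It had 37480, 65780 and 48370 normalized counts in EpCAM-high and 6824, 9174 and 6315 in EpCAM-low, against 11860, 8163 and 9532 in Lgr5-negative libraries. Every EpCAM-high library lay above every other corpus library of this line, and Aldh2 rose by log2 2.75 ± 0.24 over EpCAM-low (limma adjusted p = 7.922e-05) and 2.34 ± 0.24 over Lgr5-negative cells (limma adjusted p = 0.0005827). Both calls were kept under total-read scaling, which could not have reversed the one over EpCAM-low cells. Adh6.ps1, annotated as an alcohol dehydrogenase pseudogene, had 360.4, 854.6 and 724.1 in EpCAM-high and 44.73, 42.03 and 37.48 in EpCAM-low, against 93.24, 45.64 and 85.05 in Lgr5-negative libraries. It rose by log2 3.84 and 3.07 in EpCAM-high over EpCAM-low and Lgr5-negative cells (limma adjusted p = 0.0002623 and 0.001924), again without overlap. Aldh3a2, the fatty aldehyde dehydrogenase, had 11840, 13910 and 9061 in EpCAM-high and 3958, 4151 and 2598 in EpCAM-low, against 5465, 5523 and 5919 in Lgr5-negative libraries. Its rise in EpCAM-high was log2 1.71 over EpCAM-low and 1.02 over Lgr5-negative cells (limma adjusted p = 0.0004709 and 0.01045).

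**Figure D2:**
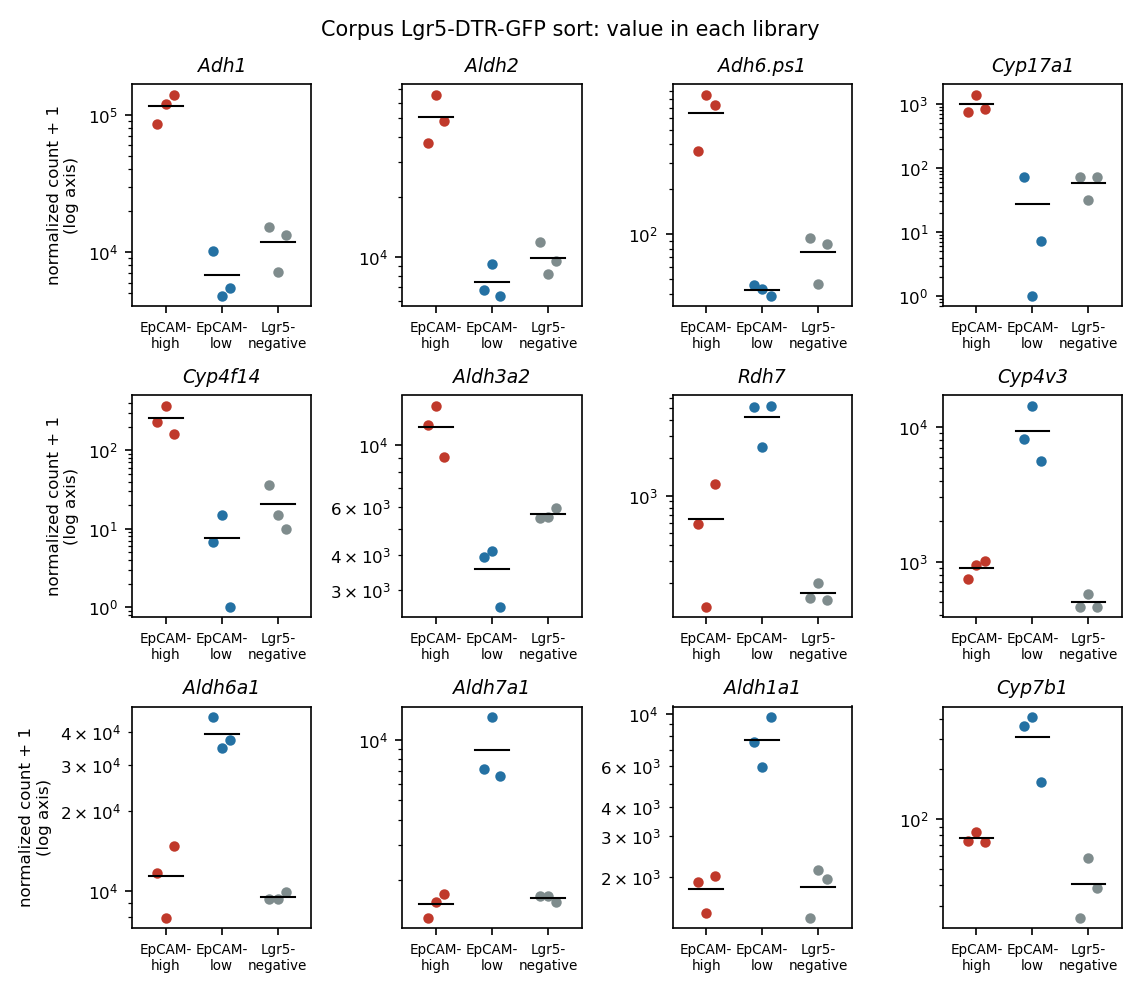
Normalized counts plus 1, on a log axis, of 12 members in the 3 EpCAM-high, 3 EpCAM-low and 3 Lgr5-negative corpus libraries, with each point a library and each line a group mean. Adh1, Aldh2, Adh6.ps1, Cyp17a1, Cyp4f14 and Aldh3a2 are highest in EpCAM-high, and Rdh7, Cyp4v3, Aldh6a1, Aldh7a1, Aldh1a1 and Cyp7b1 in EpCAM-low libraries; scaled by total reads, the EpCAM-high minus EpCAM-low difference turned to higher for Cyp7b1 and Aldh6a1 and stayed lower for the other 4 of the second set.

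The retinoid enzymes moved in both directions: of 13 tested, 2 were higher and 4 lower in EpCAM-high against EpCAM-low, and 4 were higher and 3 lower in EpCAM-low against Lgr5-negative cells, while total-read scaling gave 8 higher and 0 lower, and 1 higher and 10 lower. Rdh7, a microsomal retinol dehydrogenase, had 587.8, 127.2 and 1228 normalized counts in EpCAM-high and 5101, 2420 and 5234 in EpCAM-low, against 149.8, 197.8 and 146.3 in Lgr5-negative libraries. All EpCAM-low libraries lay above the others, while EpCAM-high libraries varied among themselves. Rdh7 rose in EpCAM-low by log2 4.61 ± 0.69 over Lgr5-negative cells (limma adjusted p = 0.001669), a call kept under total-read scaling at log2 2.62, and fell by 3.15 on the log2 scale in EpCAM-high against EpCAM-low cells (limma adjusted p = 0.007529), or 1.13 without passing under total-read scaling. Aldh1a1, the cytosolic retinaldehyde dehydrogenase, had 1919, 1403 and 2030 in EpCAM-high and 7585, 5944 and 9713 in EpCAM-low, against 1338, 2142 and 1977 in Lgr5-negative libraries. It rose in EpCAM-low by log2 2.09 ± 0.25 over Lgr5-negative cells (limma adjusted p = 0.000663), but by only 0.09 under total-read scaling. Aldh1a3, another retinaldehyde dehydrogenase, had 39.69, 68.74 and 57.1 in EpCAM-high and 0, 0 and 0 in EpCAM-low, against 42.8, 9.362 and 28.35 in Lgr5-negative libraries. It was at least 6.44-fold higher in EpCAM-high than in EpCAM-low and at least 3.13-fold lower in EpCAM-low than in Lgr5-negative cells, taking 3 reads per library as the floor (limma adjusted p = 0.0004167 and 0.002049). Outside EpCAM-high, too few libraries reached 10 for Aldh1a3 to pass the level filter. Its call as higher in EpCAM-high is therefore no more than these levels. Rdh16, a retinol dehydrogenase, averaged 0.7151 ± 1.239 in EpCAM-high and 1.168 ± 2.022 in EpCAM-low, against 33.31 ± 9.82 in Lgr5-negative cells (SD, n = 3 each). Only its Lgr5-negative libraries reached 10 and carried it through the filter, so its calls as lower in both Lgr5-positive fractions are no more than these levels. Adh5, the glutathione-dependent formaldehyde dehydrogenase, and Rdh14, which reduces retinaldehyde, were higher in EpCAM-low than in Lgr5-negative cells by log2 0.89 and 1.05, and lower by 1.11 and 0.95 on the log2 scale under total-read scaling. Before another annotated start of Rdh7 (chr10:127888734-127888983), the window held none of the 4 motifs. The window below, 250 bases before an annotated start of Rdh7 (RefSeq, GRCm38.p6, chr10:127889248-127889497, minus strand), is shown because Rdh7 was called in the corpus sort and in both comparisons of antrum with corpus. Its capitals mark an AGGTCA match on the opposite strand.
Rdh7: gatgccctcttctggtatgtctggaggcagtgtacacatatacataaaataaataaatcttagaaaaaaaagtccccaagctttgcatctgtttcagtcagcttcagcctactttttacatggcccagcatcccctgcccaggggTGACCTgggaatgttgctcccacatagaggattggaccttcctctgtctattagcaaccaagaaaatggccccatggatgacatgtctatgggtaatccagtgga

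Of 7 sterol, steroid and bile acid P450s tested, 2 were higher and 2 lower in EpCAM-high against EpCAM-low cells (4 and 0 under total-read scaling), and 2 higher and 1 lower against Lgr5-negative cells (2 and 0). Cyp17a1, the hydroxylase and lyase of androgen and cortisol synthesis, had 745.5, 1391 and 817.7 normalized counts in EpCAM-high and 71.96, 0 and 6.246 in EpCAM-low, against 70.31, 30.43 and 71.44 in Lgr5-negative libraries. No EpCAM-high library came near the others, and the rise over EpCAM-low cells was log2 6.87 ± 1.25 (limma adjusted p = 0.003027). Over Lgr5-negative cells it was 4.12 ± 1.25 (limma adjusted p = 0.04349), a call lost without any 1 of the 6 libraries compared. Cyp11a1, which makes pregnenolone from cholesterol, had 20.38, 46.97 and 15.79 in EpCAM-high and 0, 0 and 0 in EpCAM-low, against 6.114, 1.17 and 1.134 in Lgr5-negative libraries. That was at least 3.23-fold higher than in EpCAM-low cells, but Cyp11a1 passed the filter only through the EpCAM-high libraries, so its calls are no more than these levels. In the Sox2-Tomato corpus libraries, it averaged 6.885 ± 5.048 in Sox2-positive and 129.7 ± 173.2 in Sox2-negative cells, where it ranged from 3.755 to 327.3 (SD, n = 3 each). Cyp7b1, an oxysterol hydroxylase, went the other way, with 72.94, 82.48 and 71.68 in EpCAM-high and 357.8, 409.8 and 165.5 in EpCAM-low, against 24.46, 57.34 and 37.42 in Lgr5-negative libraries. Its EpCAM-low rise over Lgr5-negative cells was log2 2.92 ± 0.48 (limma adjusted p = 0.002538) and 0.94 under total-read scaling, which no longer passed (limma adjusted p = 0.08842). Cyp27b1, which activates vitamin D, averaged 60.41 ± 33.14 in EpCAM-high and 199 ± 15.92 in EpCAM-low, against 159.8 ± 36.66 in Lgr5-negative cells (SD, n = 3 each), a difference of EpCAM-high from EpCAM-low of log2 -1.83 that turned to 0.17 under total-read scaling. Cyp51, the sterol demethylase of cholesterol synthesis and the most abundant of these P450s by count, ranged from 4444 to 6442 in EpCAM-high and 2459 to 5072 in EpCAM-low, against 4290 to 5466 in Lgr5-negative libraries, and did not pass (limma adjusted p = 0.07554 for EpCAM-high over EpCAM-low, 0.02226 with sort day as a block).

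Among the other P450s, fatty acid hydroxylases of the Cyp4 family split between the fractions. Cyp4f14, a leukotriene hydroxylase of the mouse, had 229.5, 370 and 160.4 normalized counts in EpCAM-high and 5.834, 14.01 and 0 in EpCAM-low, against 35.16, 14.04 and 9.072 in Lgr5-negative libraries, and rose over EpCAM-low cells by log2 5.68 ± 0.99 (limma adjusted p = 0.002425). Cyp4f39, whose human counterpart hydroxylates very long skin lipids, averaged 93 ± 47.08 in EpCAM-high and 2.335 ± 4.045 in EpCAM-low, against 45.71 ± 4.614 in Lgr5-negative cells (SD, n = 3 each). Cyp4v3, a fatty acid hydroxylase, had 739, 947.4 and 1012 in EpCAM-high and 8094, 14450 and 5575 in EpCAM-low, against 457, 572.3 and 459.3 in Lgr5-negative libraries. Every EpCAM-low library exceeded every other by a wide margin, and the rise over Lgr5-negative cells, log2 4.13 ± 0.31 (limma adjusted p = 0.0002293), was kept under total-read scaling at 2.14 (limma adjusted p = 1.713e-05). Cyp2d10, of the drug-metabolising Cyp2d cluster, had 99.75, 126 and 120.3 in EpCAM-high and 0, 0 and 0 in EpCAM-low, against 7.643, 10.53 and 17.01 in Lgr5-negative libraries. It was at least 13.5-fold higher in EpCAM-high than in EpCAM-low cells and log2 3.25 ± 0.62 over Lgr5-negative cells (limma adjusted p = 0.006261), but 35.8% of its 50-base stretches occur in other transcripts, so its reads may be shared with close copies. Cyp2s1, the most abundant P450 outside the sterol group by mean count, averaged 5623 ± 1978 in EpCAM-high and 13000 ± 4412 in EpCAM-low, against 10210 ± 1201 in Lgr5-negative cells, a fall of 1.23 on the log2 scale in EpCAM-high against EpCAM-low cells (limma adjusted p = 0.0149) that turned to 0.79 higher under total-read scaling. Against Lgr5-negative cells the EpCAM-high difference of log2 -0.93 did not pass (limma adjusted p = 0.06173) except with sort day as a block (0.01945).

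Of 16 aldehyde dehydrogenases outside the retinoid group, 11 passed between EpCAM-high and EpCAM-low, 5 higher and 6 lower, and 8 between EpCAM-low and Lgr5-negative cells, 6 higher and 2 lower, while total-read scaling gave 10 higher and 1 lower, and 0 higher and 10 lower. Aldh6a1, of valine breakdown, had 11660, 7884 and 14770 normalized counts in EpCAM-high and 45650, 34590 and 37240 in EpCAM-low, against 9358, 9313 and 9875 in Lgr5-negative libraries. Aldh7a1, of lysine breakdown, had 1297, 1563 and 1703 in EpCAM-high and 7190, 13020 and 6583 in EpCAM-low, against 1666, 1667 and 1558 in Lgr5-negative libraries. Both stood apart from the other populations in all 3 EpCAM-low libraries, by log2 2.03 ± 0.23 and 2.38 ± 0.24 over Lgr5-negative cells (limma adjusted p = 0.00053 and 0.0003998) and by 0.03 and 0.39 under total-read scaling, where neither passed. Aldh1l1, a folate enzyme of the cytosol, averaged 5720 ± 1374 in EpCAM-high and 8163 ± 2029 in EpCAM-low, against 2271 ± 112 in Lgr5-negative cells (SD, n = 3 each). It was called higher in both Lgr5-positive fractions (limma adjusted p = 0.004599 and 0.0008737), and under total-read scaling lower in EpCAM-low by 0.18 on the log2 scale. Aldh3a1, an enzyme abundant in stomach and cornea, had 8675, 3879 and 3703 in EpCAM-high and 947.1, 1920 and 1796 in EpCAM-low, against 7242, 9593 and 12860 in Lgr5-negative libraries. It fell in EpCAM-low by 2.70 on the log2 scale against Lgr5-negative cells (limma adjusted p = 0.001369), and EpCAM-high lay log2 1.75 above EpCAM-low cells (limma adjusted p = 0.007755).

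The mu-class glutathione transferases, which conjugate electrophiles such as epoxides, lie side by side on chromosome 3 in the order Gstm5, Gstm7, Gstm6, Gstm3, Gstm2, Gstm1 and Gstm4. They did not move together. Gstm1 had 9490, 5234 and 5538 normalized counts in EpCAM-high and 5443, 5118 and 5522 in EpCAM-low, against 26160, 25050 and 25560 in Lgr5-negative libraries, and Gstm3 had 624.3, 248.6 and 238.1 in EpCAM-high and 188.6, 367.8 and 246.7 in EpCAM-low, against 1717, 1837 and 1758. Both Lgr5-positive fractions lay below every Lgr5-negative library. Gstm1 fell by 1.98 and 2.26 on the log2 scale in EpCAM-high and EpCAM-low against Lgr5-negative cells (limma adjusted p = 0.0006688 and 0.0003087), and Gstm3 fell by 2.41 and 2.78 (limma adjusted p = 0.002828 and 0.001193). All 4 calls were kept under total-read scaling, which could not have reversed those in EpCAM-low cells. Gstm6 fell in EpCAM-high against both other groups, with 218.8, 226.8 and 138.5 in EpCAM-high and 834.3, 672.5 and 799.5 in EpCAM-low, against 1062, 1186 and 1141 in Lgr5-negative libraries. Its fall of 2.56 on the log2 scale against Lgr5-negative cells (limma adjusted p = 0.0003309) was kept under total-read scaling, and the fall of 2.0 against EpCAM-low cells turned to 0.01 higher. Gstm5, at the other end of the cluster, had 1785, 2243 and 1867 in EpCAM-high and 2806, 2105 and 3645 in EpCAM-low, against 1003, 1155 and 1153 in Lgr5-negative libraries. It was higher in EpCAM-low by log2 1.34 ± 0.21 (limma adjusted p = 0.001932), or lower by 0.66 on the log2 scale under total-read scaling, and in EpCAM-high by 0.83 ± 0.21 (limma adjusted p = 0.02031, lost without EpCAM-high replicate 2 or without any 1 Lgr5-negative library). The Gstm windows of 250 bases are given because these neighbours moved in opposite directions (RefSeq, GRCm38.p6; Gstm5 at chr3:107895604-107895853, plus strand; Gstm3 at chr3:107969175-107969424, minus strand; Gstm1 at chr3:108017819-108018068, minus strand), with capitals as above.
Gstm5: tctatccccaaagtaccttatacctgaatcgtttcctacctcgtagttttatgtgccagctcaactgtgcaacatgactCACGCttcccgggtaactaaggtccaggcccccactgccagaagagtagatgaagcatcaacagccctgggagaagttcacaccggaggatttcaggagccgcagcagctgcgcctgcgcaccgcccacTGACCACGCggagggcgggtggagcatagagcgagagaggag
Gstm3: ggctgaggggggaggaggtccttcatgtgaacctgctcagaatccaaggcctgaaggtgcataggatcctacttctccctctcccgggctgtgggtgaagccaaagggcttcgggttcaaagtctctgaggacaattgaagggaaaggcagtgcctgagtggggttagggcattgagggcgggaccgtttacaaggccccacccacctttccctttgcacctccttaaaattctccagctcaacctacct
Gstm1: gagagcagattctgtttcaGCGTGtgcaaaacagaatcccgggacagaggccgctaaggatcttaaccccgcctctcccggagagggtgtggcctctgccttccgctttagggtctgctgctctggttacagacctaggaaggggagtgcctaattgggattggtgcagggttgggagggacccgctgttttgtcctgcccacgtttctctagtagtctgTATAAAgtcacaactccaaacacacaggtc
The Gstm5 window held 1 match to TGACNNNGC, whose last bases overlap a match to GCGTG on the opposite strand, and 2 matches to GCGTG in all. The Gstm1 window shown held 1 match to GCGTG and 1 to TATAAA, and the Gstm3 window held none of the 4 motifs. A window before another annotated start of Gstm1 (chr3:108017974-108018223) held 1 match to GCGTG and none to TATAAA. Of Gstm3, 28.8% of the 50-base stretches occur in other transcripts, and of Gstm1 18.9%, so some reads could be split between copies.

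**Figure D3:**
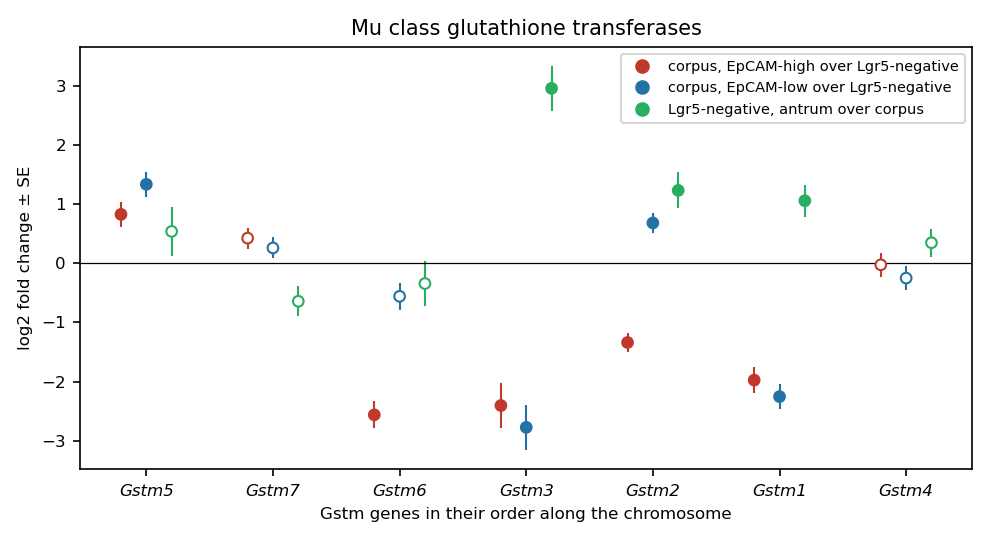
Log2 fold change with its standard error for the 7 Gstm genes in chromosomal order in 3 comparisons, filled where the limma adjusted p is under 0.05. Gstm5 lies above 0 and Gstm3 and Gstm1 below 0 in both Lgr5-positive corpus fractions against Lgr5-negative cells, except that total-read scaling puts Gstm5 at -0.66 in EpCAM-low cells.

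Of all 22 glutathione transferases tested, 1 was higher and 5 were lower in EpCAM-high against Lgr5-negative cells (0 and 4 under total-read scaling), and 4 were higher and 6 lower in EpCAM-low against Lgr5-negative cells (0 and 19). Gsta4 fell in EpCAM-low, at 9275, 12120 and 12310 normalized counts against 22140, 43900 and 54690 in Lgr5-negative libraries (log2 -1.75 ± 0.40, limma adjusted p = 0.009703). Gsto1, with 25040, 24580 and 30510 in EpCAM-low against 63430, 75060 and 74810 in Lgr5-negative libraries, fell by 1.42 on the log2 scale (limma adjusted p = 0.005466). These groups did not overlap. Gstk1, a mitochondrial and peroxisomal enzyme, went the other way with 3773, 2760 and 5128 in EpCAM-low against 868.2, 1046 and 1241 in Lgr5-negative libraries (log2 1.85, limma adjusted p = 0.003258), or -0.14 under total-read scaling. Gstp1, the pi-class enzyme, averaged 3681 ± 95.83 in EpCAM-high and 3386 ± 413.3 in EpCAM-low, against 4401 ± 268.5 in Lgr5-negative cells (SD, n = 3 each), and did not pass in any of the 3 comparisons. Of 9 UDP-glucuronosyltransferases, 2 fell in EpCAM-low against Lgr5-negative cells (7 under total-read scaling). Ugt1a6b averaged 31.16 ± 9.715 in EpCAM-low against 232.2 ± 84.6 in Lgr5-negative cells (limma adjusted p = 0.004217), but 79.8% of its 50-base stretches occur in other transcripts. Ugt2b34, the most abundant of them by count, averaged 4324 ± 2507 in EpCAM-high against 10430 ± 2271 in Lgr5-negative cells, a call (limma adjusted p = 0.04207) kept in 1 of 6 fits that left out a library.

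In the antrum, no member passed between Lgr5-positive and Lgr5-negative cells: limma called 0 of 91 members and 0.0% of all genes. An unadjusted limma p under 0.05 was found for 15 members, beside 1017 of all 14047 genes. edgeR called 0 members and DESeq2 4, beside 0.0% and 2.72% of all genes. With sort day as a block, 7 members passed, 5 higher and 2 lower, against 3.18% of all genes (2.51% higher and 0.669% lower). Rdh7 had 241.3, 235.7 and 107.3 normalized counts in Lgr5-positive against 29.37, 27.91 and 25.09 in Lgr5-negative libraries. The groups did not overlap, and the difference was log2 2.69 ± 0.46 (limma adjusted p = 0.124; 0.015 with the block). The others called with the block were Gstm5, Aldh1l1, Cyp4f13 and Cyp2c23 on the higher side and Gstm3 and the pseudogene Cyp2d37.ps on the lower. Gstm5 had 12660, 2451 and 3070 in Lgr5-positive against 2215, 1158 and 1380 in Lgr5-negative libraries (limma adjusted p = 0.6424; 0.03468 with the block), and Gstm3 had 5713, 3831 and 8132 against 17410, 9916 and 13050 (0.4597; 0.03255). Adh1 had 19250, 12590 and 7937 in Lgr5-positive against 9170, 9837 and 7645 in Lgr5-negative libraries, with overlap and a limma adjusted p of 0.8877. The chief cell markers summed to 2182000 to 7176000 in Lgr5-positive against 177300 to 349700 in Lgr5-negative libraries, and the tuft markers to 5317 to 14590 against 2639 to 9282. Parietal markers summed to 24890 to 71260 in Lgr5-positive against 513.6 to 1900 in Lgr5-negative libraries, mucous neck or deep gland markers to 729900 to 4489000 against 187800 to 343800, and fibroblast and pericyte markers to 598.8 to 1622 against 25.18 to 244.7. Their part was not tested.

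The difference between tissues in the Lgr5 effect was then tested, as the antrum Lgr5-positive minus Lgr5-negative difference less the corpus EpCAM-high minus Lgr5-negative difference, on reads rescaled together. Of 99 members, 4 passed, 1 higher and 3 lower, or 4.04% of members against 4.04% of all genes (1.81% higher and 2.22% lower). Adh1 gave -2.90 ± 0.52 on the log2 scale (limma adjusted p = 0.009036) and Aldh2 -2.28 ± 0.41 (limma adjusted p = 0.009061), so both rose more with Lgr5 in corpus EpCAM-high cells than in the antrum, and both kept the call in all 12 fits that left out a library. Adh6.ps1 gave -2.89 ± 0.68 (limma adjusted p = 0.02987, kept in 3 of 12 fits) and Gstm6 2.42 ± 0.53 (limma adjusted p = 0.02325, kept in 5 of 12 fits and at 0.06147 under total-read scaling). The count fell to 2 without antrum Lgr5-negative replicate 2 or 3, antrum Lgr5-positive replicate 3, EpCAM-high replicate 3, or corpus Lgr5-negative replicate 2 or 3, and rose to 12 with sort day as a block, 5 higher and 7 lower, against 9.37% of all genes. The other Lgr5-positive fraction of the corpus, EpCAM-low, did not enter this difference. It averaged 6794 normalized counts for Adh1 and 7438 for Aldh2, against 11930 and 9851 in corpus Lgr5-negative cells. The antrum sort had no EpCAM gate that matches the corpus fractions, so the gate and the tissue cannot be told apart.

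In the antrum Sox2 sort, Cyp2a5 was higher and Cyp17a1, Cyp2s1 and the aldehyde dehydrogenase Aldh2 were lower in Sox2-high cells than in both other populations. Of 99 tested members, 13 passed between Sox2-high and Sox2-low cells, 6 higher and 7 lower, or 13.1% against 7.9% of all genes (6.14% higher and 1.76% lower). With sort day as a block 42 passed, 16 higher and 26 lower, or 42.4% against 30.4% (17.3% higher and 13.1% lower). Against Sox2-negative cells, 5 of 99 passed, 2 higher and 3 lower, or 5.05% against 2.15% of all genes (1.43% higher and 0.724% lower), and 16 with the block, 3 higher and 13 lower, against 9.71% (5.38% higher and 4.33% lower). Of the called members, 1 of 13 and 1 of 5, Cyp2a5 in both, had passed the level filter only through the Sox2-high libraries and lends no support. These counts depend on single libraries: 0 of the 13 and 0 of the 5 calls were present in every fit that left out a library. Between Sox2-high and Sox2-low cells, 0 members passed without Sox2-high replicate 2, 4 without Sox2-high replicate 3, 3 without Sox2-low replicate 1, 2 without replicate 2 and 4 without replicate 3. Against Sox2-negative cells, 1 passed without Sox2-high replicate 1, 0 without replicate 2, 1 without replicate 3, 3 without Sox2-negative replicate 1, and 2 without replicate 2 or replicate 3.

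Cyp2a5, which oxidises coumarin and nicotine, had 392.9, 300.3 and 545 normalized counts in Sox2-high libraries and 0, 2.697 and 0.5962 in Sox2-low, against 0, 4.777 and 0 in Sox2-negative libraries. Only the Sox2-high libraries held more than a few reads. The difference was log2 7.80 ± 0.86 over Sox2-low cells and 7.81 ± 0.86 over Sox2-negative cells (SE), but Cyp2a5 passed the filter only through the Sox2-high libraries, so its calls here are no more than these levels. The authors' deposited table for Sox2-high against Sox2-low, which rests on the same sort, gave log2 8.47. In all, the authors' deposited table called 5 members higher and 2 lower, of 107 with an adjusted p. The share of all genes called there was not computed, so this count says nothing particular about the members. Of its 50-base stretches, 28.1% also occur in Cyp2a4, which averaged 14.65 ± 7.366 in Sox2-high cells (SD, n = 3), so some reads could belong to that copy. Its window of 250 bases before the start follows (RefSeq, GRCm38.p6, chr7:26835089-26835338, plus strand), with a TATAAA match in capitals.
Cyp2a5: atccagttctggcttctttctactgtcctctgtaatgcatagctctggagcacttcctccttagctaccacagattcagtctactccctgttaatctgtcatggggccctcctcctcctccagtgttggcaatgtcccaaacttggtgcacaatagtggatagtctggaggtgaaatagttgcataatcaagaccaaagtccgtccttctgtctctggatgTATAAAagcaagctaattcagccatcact
Cyp17a1 went the opposite way, with 0, 0 and 4.321 in Sox2-high and 52.09, 38.44 and 83.47 in Sox2-low, against 17.79, 51.95 and 70.16 in Sox2-negative libraries. Its log2 difference was -5.01 ± 0.84 against Sox2-low (limma adjusted p = 0.01006) and -4.57 ± 0.84 against Sox2-negative cells (limma adjusted p = 0.02712), and the authors' deposited table for Sox2-high against Sox2-low gave -5.21 with an adjusted p of 0.0001123. Cyp7b1 had 79.89, 245.7 and 216.7 in Sox2-high against 1.929, 19.56 and 28.62 in Sox2-low libraries, a rise of log2 3.75 ± 0.88 (limma adjusted p = 0.03365). The Cyp7b1 groups did not overlap.

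Further Sox2-high changes concerned fatty acid and aldehyde enzymes. Cyp4b1, which activates furans, had 278, 279.1 and 154.9 normalized counts in Sox2-high against 34.72, 33.72 and 47.1 in Sox2-low libraries (log2 2.56 ± 0.46, limma adjusted p = 0.01343). Aldh3b1, an aldehyde dehydrogenase of lipid-derived aldehydes, had 770.4, 1142 and 851.8 against 161.1, 135.5 and 100.8 (log2 2.80 ± 0.62, limma adjusted p = 0.02924). These groups did not overlap, nor did those of Cyp4x1 and Cyp2c68, at log2 2.58 and 2.42 (limma adjusted p = 0.04547 and 0.03074). On the lower side, Aldh2 had 4197, 4327 and 5995 in Sox2-high and 12330, 11130 and 13890 in Sox2-low, against 9671, 11610 and 14040 in Sox2-negative libraries. It fell by 1.38 ± 0.26 on the log2 scale against Sox2-low (limma adjusted p = 0.01471) and 1.29 ± 0.26 against Sox2-negative cells (limma adjusted p = 0.03627). Cyp2s1 had 921.4, 966.4 and 917.2 in Sox2-high and 2288, 3477 and 2570 in Sox2-low, against 1987, 3912 and 2157 in Sox2-negative libraries, a fall of 1.55 on the log2 scale against Sox2-low (limma adjusted p = 0.0185) and 1.45 against Sox2-negative cells (limma adjusted p = 0.0452). The stomach-rich pair Adh7 and Aldh3a1 also fell against Sox2-low cells: Adh7 had 221.1, 488 and 437 in Sox2-high against 1284, 1837 and 1163 in Sox2-low libraries (log2 -1.95 ± 0.45, limma adjusted p = 0.03132), and Aldh3a1 had 390.7, 313.2 and 379.6 against 1365, 1501 and 956.9 (log2 -1.80 ± 0.33, limma adjusted p = 0.01443). Cyp3a13 and Cyp2c65, of drug-metabolising subfamilies, fell by 1.73 and 1.57 on the log2 scale (limma adjusted p = 0.0447 and 0.03387). Adh1 averaged 9426 ± 2183 in Sox2-high and 17880 ± 7489 in Sox2-low, against 24510 ± 10550 in Sox2-negative cells (SD, n = 3 each), and passed only with sort day as a block (0.007085 against Sox2-low and 0.003299 against Sox2-negative cells). In the authors' deposited table, Adh7 (adjusted p = 0.1057), Aldh3a1 (0.115), Cyp3a13 (0.1385), Cyp4x1 (0.1398), Cyp2c65 (0.1966), Cyp2c68 (0.2151) and Aldh2 (0.2721) did not pass, and the other 6 members called here did. Leaving out 1 library ended the Adh7 call in all 6 fits, those of Cyp3a13, Cyp2c65, Cyp2c68, Cyp4x1 and Aldh3b1 in 5, those of Aldh2, Aldh3a1, Cyp2s1 and Cyp7b1 in 4, that of Cyp4b1 in 3 and that of Cyp17a1 in 2. Against Sox2-negative cells it ended the Cyp2s1 call in all 6 fits, that of Aldh2 in 5 and that of Cyp17a1 in 4. No glutathione transferase passed between Sox2-high and Sox2-low cells, against 13 of 22 with the block, 3 higher and 10 lower.

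**Figure D4:**
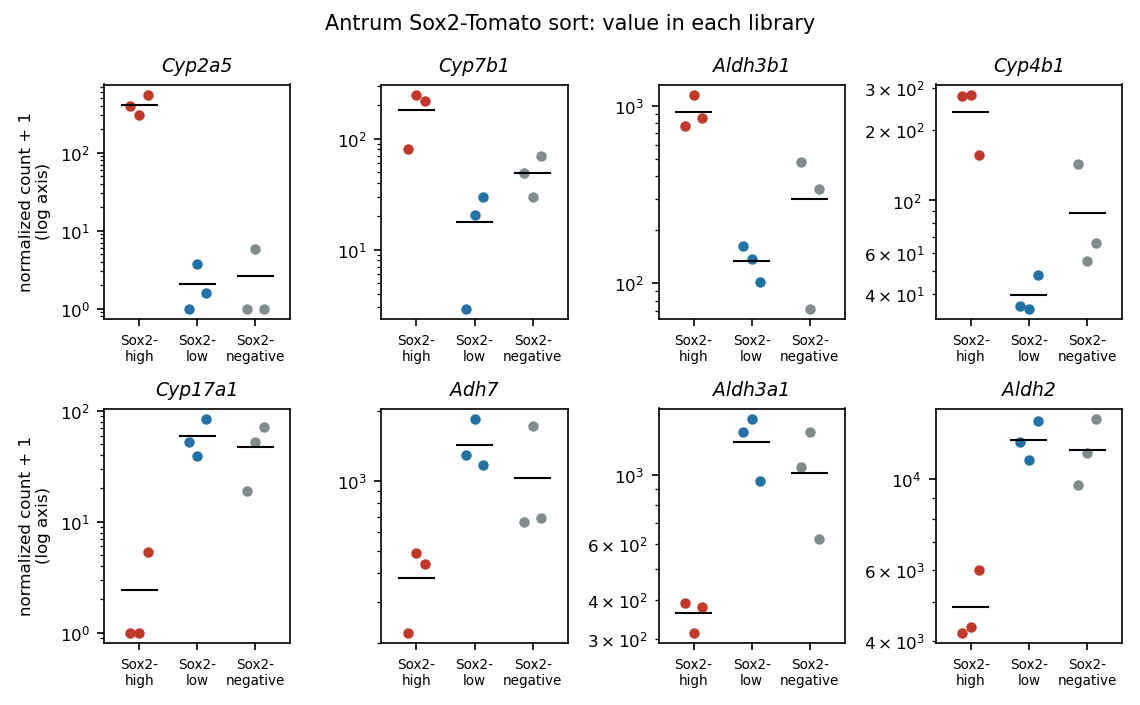
Normalized counts plus 1, on a log axis, of 8 members in the 3 Sox2-high, 3 Sox2-low and 3 Sox2-negative antrum libraries, with each point a library and each line a group mean. Cyp2a5 lies between 300.3 and 545 in Sox2-high and below 5 in all other libraries shown, and Cyp17a1 shows the reverse.

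Enteroendocrine markers summed to 2728000 to 3486000 in Sox2-high and 351100 to 756500 in Sox2-low, against 572700 to 5376000 in Sox2-negative libraries, with Chga, Chgb and Tph1 called higher and Gip and Sst lower in Sox2-high against Sox2-low cells. Tuft markers summed to 132.4 to 2443 in Sox2-high and 5344 to 16520 in Sox2-low, against 7002 to 19690 in Sox2-negative libraries. Pit markers summed to 94560 to 357100 in Sox2-high and 396200 to 954800 in Sox2-low, against 240100 to 524100 in Sox2-negative libraries. Leukocyte markers summed to between 1014 and 13630 in the Sox2-negative libraries. Their part in the enzyme changes was not tested. Between Sox2-low and Sox2-negative cells, limma called 0 of 99 members and 0.0% of all genes. An unadjusted limma p under 0.05 was found for 11 members, beside 966 of all 15064 genes. The sort-day block, edgeR and DESeq2 called 0 members too, beside 0.0%, 0.0% and 1.51% of all genes.

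In the corpus Sox2 sort, 4 of 88 members passed, all lower in Sox2-positive cells, or 4.55% against 9.73% of all genes (1.7% higher and 8.02% lower). Sox2-positive libraries here carry a description that reads Sox2_low. Aldh1b1, a mitochondrial aldehyde dehydrogenase, had 216, 200.8 and 181.1 normalized counts in Sox2-positive against 533, 1295 and 887 in Sox2-negative libraries (log2 -2.09 ± 0.28, limma adjusted p = 0.001776). Gstm6 had 836.2, 807.9 and 956.2 against 1691, 2221 and 2154 (log2 -1.21 ± 0.14, limma adjusted p = 0.0006387). Both groups were apart, and both calls held without any single library. Ugt1a9 and Ugt1a7c fell by 1.94 and 0.90 on the log2 scale (limma adjusted p = 0.01919 and 0.03232), with reads that may be shared within the Ugt1a locus. The count fell to 2 without Sox2-negative replicate 2 or Sox2-positive replicate 3. With sort day as a block 17 passed, 10 higher and 7 lower, against 16.4% of all genes (4.95% higher and 11.5% lower). Adh1 was then among the higher ones, with 28930, 12120 and 16590 in Sox2-positive against 11520, 7306 and 9067 in Sox2-negative libraries (log2 0.98 ± 0.30, limma adjusted p = 0.09109; 0.001958 with the block), as was Aldh2, which averaged 13450 ± 2978 against 8986 ± 756.5 (limma adjusted p = 0.05464; 0.002057 with the block). Tuft markers summed to 20500 to 38630 in Sox2-positive against 8818 to 14410 in Sox2-negative libraries, enteroendocrine markers to 65630 to 76570 against 460300 to 1025000, and leukocyte markers to 786.9 to 1018 against 1295 to 11400. Their part was not tested. The difference between tissues in the Sox2 effect, antrum Sox2-low minus Sox2-negative less corpus Sox2-positive minus Sox2-negative, called 0 of 106 members by limma and 0.0362% of all genes, and 2 with the block (Adh1 at log2 -1.39 and Gstm6 at 1.93), against 0.61%.

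Antrum and corpus were compared in the marker-negative cells of each line, which share no library, on reads rescaled together. Of Lgr5-negative members 12 of 99 passed, 7 higher and 5 lower in the antrum, or 12.1% against 5.26% of all genes (2.28% higher and 2.98% lower). Total-read scaling, which moved the median of all genes by log2 to 0.69 from 0.06, gave 15 higher and 2 lower, beside 11.6% of all genes. Of Sox2-negative members 21 of 106 passed, 11 higher and 10 lower, or 19.8% against 8.97% (4.61% higher and 4.36% lower). The 6 members called in both lines made up 50% of the Lgr5-negative list and 28.6% of the Sox2-negative list, all in the same direction, and over the 95 members tested in both the log2 differences had r = 0.77 across genes, which are not independent, with 65 of the same sign. The same figures over all genes were not computed, so this agreement between lines cannot be called particular to these enzymes. Sort days were not shared between tissues, so tissue and day cannot be told apart.

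The 4 shared members higher in the antrum were Gstm3, Cyp4x1, Cyp4f40 and Aldh1a7. Gstm3 had 15120, 9766 and 12820 rescaled counts in antrum against 1602, 1608 and 1560 in corpus Lgr5-negative libraries (log2 2.96 ± 0.38, limma adjusted p = 0.000214), and 8973, 11090 and 6264 against 1927, 1654 and 2088 in Sox2-negative libraries (log2 2.18 ± 0.37, limma adjusted p = 0.001674). Cyp4f40, of the fatty acid hydroxylase cluster on chromosome 17, had 59.03, 94.42 and 83.78 against 0, 1.024 and 0 in Lgr5-negative libraries, and 74.71, 115 and 138.7 against 2.085, 0 and 0 in Sox2-negative libraries. It was close to absent from the corpus in both lines (log2 5.96 and 6.20, limma adjusted p = 0.0001491 and 1.142e-05). Cyp4x1 was at least 7.84-fold higher in antrum Lgr5-negative cells, where all corpus libraries had 0 reads, and log2 5.48 ± 0.65 in the Sox2-negative cells (limma adjusted p = 0.000505 and 0.0001233). Aldh1a7, a close relative of Aldh1a1, was higher by log2 1.68 and 1.76 (limma adjusted p = 0.03714 and 0.007566), and the Lgr5-negative call was lost without any 1 of its 6 libraries. The 2 shared members lower in the antrum were Rdh7 and Aldh6a1. Rdh7 had 25.51, 27.49 and 24.64 in antrum against 139.8, 173.1 and 129.8 in corpus Lgr5-negative libraries, and 265.8, 206.1 and 64.41 against 1342, 788.1 and 840 in Sox2-negative libraries. It fell by 2.46 and 2.65 on the log2 scale (limma adjusted p = 0.03499 and 0.003334), and the Lgr5-negative call was lost without any 1 of its 6 libraries. Aldh6a1 averaged 2418 ± 887.3 in antrum against 8551 ± 345.5 in corpus Lgr5-negative cells, and 3523 ± 1259 against 12910 ± 589.2 in Sox2-negative cells (SD, n = 3 each; limma adjusted p = 0.01029 and 0.03801, the Sox2-negative call being lost without any 1 of its 6 libraries).

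Calls in a single line included the stomach-rich pair. In Sox2-negative cells Adh7 had 824.3, 2373 and 943.7 rescaled counts in antrum against 10340, 8520 and 10190 in corpus libraries (log2 -2.97 ± 0.41, limma adjusted p = 0.0003808), and Aldh3a1 had 1309, 1890 and 852.5 against 10940, 11360 and 8317 (log2 -2.98 ± 0.27, limma adjusted p = 1.441e-05). Cyp2s1 fell there by 2.18 on the log2 scale (limma adjusted p = 0.0004831), Aldh1a1 by 1.37 (limma adjusted p = 0.003766), and Gstm6 by 1.92 (limma adjusted p = 0.005282). Cyp4v3, high in corpus EpCAM-low cells, was higher in antrum Sox2-negative cells, at 2660, 1852 and 5802 against 285.7, 273.2 and 157.4 in corpus libraries (log2 3.72 ± 0.59, limma adjusted p = 0.001176), and Aldh3b1 and Aldh3b2 were higher by log2 3.16 and 4.36 (limma adjusted p = 0.004197 and 0.008788). In Lgr5-negative cells, Aldh1l2, a mitochondrial folate enzyme, had 0, 15.54 and 8.624 in antrum against 256.8, 466.1 and 369.4 in corpus libraries (log2 -6.03 ± 1.10, limma adjusted p = 0.003844), and Rdh12, a reductase of retinaldehyde, had 2.915, 9.562 and 4.928 against 89.89, 51.22 and 76.5 (log2 -3.52 ± 0.59, limma adjusted p = 0.002141). Both fell without overlap. Gstm1 and Gstm2 were higher in antrum Lgr5-negative cells by log2 1.06 and 1.23 (limma adjusted p = 0.03448 and 0.02775), calls kept in 0 and 1 of 6 fits that left out a library, and Cyp27a1, a sterol hydroxylase of bile acid synthesis, by 4.32 (limma adjusted p = 0.01587, kept in 2 of 6). Leaving out antrum Lgr5-negative replicate 2 or 3 gave 7 and 6 called members, and leaving out corpus Lgr5-negative replicate 1 or 3 gave 6 and 7. Chief markers summed to 177300 to 349700 in antrum against 7797000 to 10420000 in corpus Lgr5-negative libraries. Parietal markers summed to 513.6 to 1900 against 58230 to 78840. In Sox2-negative libraries these sums were 179000 to 790900 against 1725000 to 2294000, and 9308 to 30670 against 268800 to 481600. Mucous neck or deep gland markers lay higher in the antrum, at 187800 to 343800 against 96960 to 150600 in Lgr5-negative libraries. These sums are scaled separately by tissue, other lists are not given, and the part of the cell pools was not tested.

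**Figure D5:**
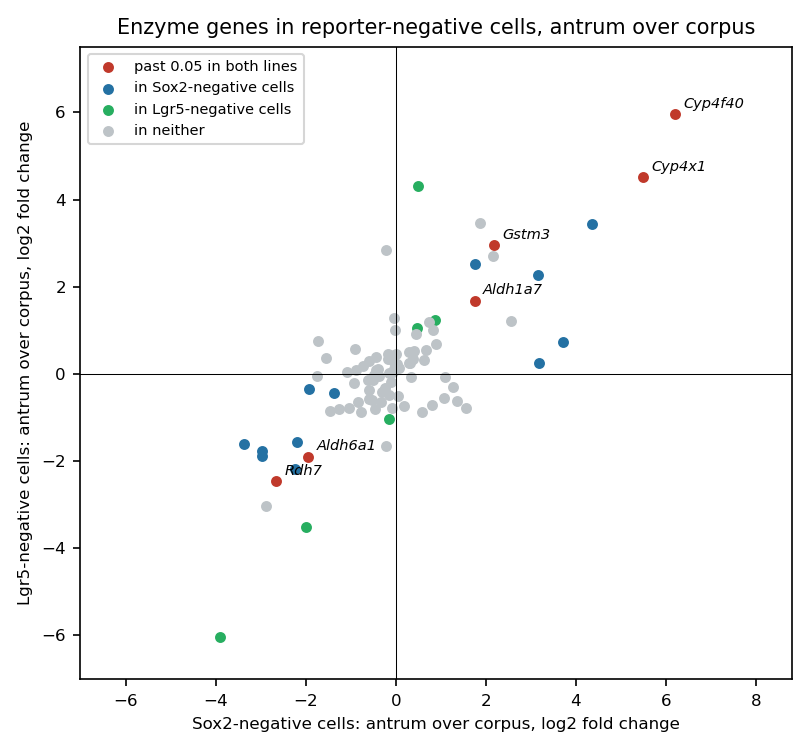
Log2 difference of antrum minus corpus in Sox2-negative cells (x axis) and Lgr5-negative cells (y axis) for the members tested in both lines, coloured by which line called them. The 6 members called in both, which are labelled, lie in the quadrants where both lines have the same sign, with Cyp4f40 at 6.20 and 5.96.

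Pathway partners outside the enzyme families were read from lists by counts alone, beside the shares of all genes called: 12.9% higher and 18.0% lower in EpCAM-low against Lgr5-negative cells, 10.7% and 10.5% in EpCAM-high against Lgr5-negative cells, 17.5% and 14.3% in EpCAM-high against EpCAM-low cells, 6.14% and 1.76% in Sox2-high against Sox2-low cells, 1.7% and 8.02% in corpus Sox2-positive against Sox2-negative cells, and in the antrum against the corpus 2.28% and 2.98% in Lgr5-negative and 4.61% and 4.36% in Sox2-negative cells. Of 13 retinoid binding and signalling genes tested in the corpus Lgr5 sort, 0 were higher and 6 lower in EpCAM-low against Lgr5-negative cells (12 lower under total-read scaling), and 0 higher and 4 lower in EpCAM-high, or 7 lower with the block. The list's median was log2 -1.86 in EpCAM-low and -1.46 in EpCAM-high against Lgr5-negative cells, beside -0.19 and -0.06 over all genes tested. Among those lower in EpCAM-low cells were the retinol carriers Rbp2, Rbp4 and Rbp7 and the retinoic acid receptors Rara and Rarg. Rbp4 averaged 132 ± 63.43 in EpCAM-high and 137.7 ± 50.65 in EpCAM-low, against 1050 ± 312.3 in Lgr5-negative cells (SD, n = 3 each). Between tissues, Rbp4 and Rbp7 were higher in the antrum in both lines, and of 13 genes tested 3 were higher and 0 lower in Lgr5-negative and 4 higher and 1 lower in Sox2-negative cells. Rbp4 differed by log2 1.77 and 4.16 (limma adjusted p = 0.0318 and 6.191e-05). In Sox2-high against Sox2-low cells, 0 of 12 were higher and 2 lower, and in corpus Sox2-positive against Sox2-negative cells 1 of 11 was higher and 2 were lower.

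Of 15 Nrf2 targets and regulators, which include the oxidative stress factor Nfe2l2 and the quinone reductase Nqo1, 0 were higher and 10 lower in EpCAM-low against Lgr5-negative cells (15 lower under total-read scaling), 0 and 6 in EpCAM-high against Lgr5-negative cells, and 4 and 1 in EpCAM-high against EpCAM-low cells (13 and 0). The medians were log2 -1.295, -0.81 and 0.37 in that order. Slc7a11, the cystine importer for glutathione synthesis, averaged 149.3 ± 29.82 in EpCAM-high and 9.867 ± 0.583 in EpCAM-low, against 54.9 ± 4.019 in Lgr5-negative cells (SD, n = 3 each). Nfe2l2, Nqo1 and Pgd fell in Sox2-high against Sox2-low cells, 3 of 15, or 1 higher and 8 lower with the block. Of 4 tested Ahr pathway genes, Tiparp rose in EpCAM-high against both other populations, with means of 3135 ± 719.7 in EpCAM-high and 970.7 ± 582.3 in EpCAM-low cells. For this list, the electron donors and the exporters, only genes that rose in EpCAM-high are named, and the rest are not given. Of 7 P450 electron donors, Cyb5r3 and Cyb5a, which pass electrons to P450s and desaturases, rose in EpCAM-high against both populations, by log2 1.20 and 0.87 over EpCAM-low cells. Of 6 sulfotransferases, 0 were higher and 3 lower in EpCAM-low against Lgr5-negative cells, and Sult4a1 rose in Sox2-high against both other antrum populations. Of 11 epoxide hydrolases and carboxylesterases, 1 was higher and 6 lower in EpCAM-low, and 0 higher and 4 lower in EpCAM-high, against Lgr5-negative cells. Of 6 xenobiotic exporters and receptors, the exporters Abcb1a and Abcc3 rose in EpCAM-high against EpCAM-low cells. Abcb1a averaged 76.28 ± 31.01 in EpCAM-high against 0 in EpCAM-low cells, where no library had a read, and rose by log2 3.93 over Lgr5-negative cells, while Abcc3 was log2 2.75 above EpCAM-low cells. Outside EpCAM-high, too few libraries reached 10 for Abcb1a to pass the level filter, so its calls are no more than these levels.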

How the data were processed

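RNA from sorted mouse stomach cells was made into low-input libraries with a SMARTer v4 kit, per the labels' protocols, and mm9, edgeR, DESeq2, HTSeq and STAR appear in the submitters' processing notes without roles. The deposited signal values are gene counts that the authors divided by a size factor for each library, in an antrum and a corpus table scaled separately. At a tolerance of 0.01, at least 99.9949% of values returned whole reads. The authors' deposited comparison tables give a log2 fold change and an adjusted p-value per gene; only the one for antrum Sox2-high against Sox2-low was used, because the one for antrum Lgr5 correlated across genes at r = -0.96 with the matching fit, and the EpCAM one at -0.56. Features without a name took 0.029% to 0.4821% of reads and were left out, as were 25 date-named ones.

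The main test was limma 3.58.1 in R 4.3.3 on log2(normalized count + 1), with trend and robust estimation, for genes with at least 10 in 3 libraries of the fit, adjusted by Benjamini-Hochberg over all genes at 0.05. Fold changes on this scale understate low genes. Antrum and corpus were compared on recovered reads of both tissues rescaled together by TMM. The deposited sort sheet gives 1 shared sort day to the libraries of a line and tissue with the same number, for all 12 combinations, so the block pairs them by day. Alternatives were the block, a pseudocount of 8, no filter, TMM, edgeR 4.0.16, DESeq2 1.42.0, leaving out each library and, chosen after seeing the data, total-read scaling. The fits were tested on simulated data. Members and lists were chosen with earlier results of these data known. The rule for named genes took, per comparison, up to 12 members in each direction past the threshold that moved one way on all 3 sort days, the 5 of lowest p where fewer than 5 passed, the most abundant member of each family and a preset list; other members named were chosen after their values were seen. Shared 50-base stretches were counted in the GENCODE vM21 transcripts, and promoter windows came from RefSeq, GRCm38.p6. The SE and SD values measure the spread between libraries, while the floors of 3 reads cover counting error only.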

Additional observations from a re-analysis of the deposited data

Results flagged for a closer look

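Adh1, Aldh2, Adh6.ps1 and Gstm6 differed between tissues in the Lgr5 effect, tested by the interaction term of limma across all genes. The antrum Lgr5-positive minus Lgr5-negative difference, less the corpus EpCAM-high minus Lgr5-negative difference, was -2.904 for Adh1, -2.284 for Aldh2, -2.893 for Adh6.ps1 and 2.421 for Gstm6 on the log2 scale. Corpus EpCAM-low Lgr5-positive cells did not enter it, and their Adh1 and Aldh2 means lay below those of corpus Lgr5-negative cells. The limma adjusted p-values were 0.009036 for Adh1, 0.009061 for Aldh2, 0.02987 for Adh6.ps1 and 0.02325 for Gstm6. Adh1 and Aldh2 kept the call in all 12 fits that left out a library, Adh6.ps1 in 3 and Gstm6 in 5, and Gstm6 gave 0.06147 under total-read scaling. The 4 calls were 4.04% of members, against 4.04% of all genes. No sort day was shared between tissues and the antrum sort had no matching EpCAM gate, so tissue, day and gate cannot be told apart.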

How the results depend on the processing

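Counts of members called moved by over 1.5 times as follows, in place of the limma values in the report. With the replicate block by sort day they were 7 for antrum Lgr5, 42 for Sox2-high against Sox2-low, 16 for Sox2-high against Sox2-negative, 17 for corpus Sox2, 12 for the Lgr5 and 2 for the Sox2 difference between tissues. DESeq2 gave 4, 23, 12 and 14 for the first 4 of these, beside 2.72%, 16.2%, 6.37% and 12.8% of all genes. With edgeR there were 2 for Sox2-high against Sox2-negative and 7 for corpus Sox2, beside 1.5% and 9.61%. Sox2-high against Sox2-negative gave 3 with no filter and 3 under total-read scaling, beside 1.29% and 1.88% of all genes. A pseudocount of 8 gave 20 for antrum against corpus Lgr5-negative and 9 for the Lgr5 difference between tissues, beside 6.79% and 6.42% of all genes. Total-read scaling gave 63 for EpCAM-high against EpCAM-low and 69 for EpCAM-low against Lgr5-negative cells, beside 76.9% and 81.9% of all genes. Leaving out 1 library gave 0 to 19 for Sox2-high against Sox2-low, 0 to 3 against Sox2-negative, 10 to 25 for EpCAM-high against Lgr5-negative, 2 to 6 for corpus Sox2, 6 to 10 for antrum against corpus Lgr5-negative and 2 to 5 for the Lgr5 difference between tissues. For fits without 1 library, here and above, the shares of all genes called were not computed. A moved count there cannot be called particular to the members. Under total-read scaling 13 of 37 called members changed sign for EpCAM-high against EpCAM-low cells, which besides Cyp2j6, Aldh16a1, Gstt3, Cyp27b1, Rdh12, Aldh6a1 and Aldh18a1 were Gstm2 (0.000155), Gstm6 (0.014), Cyp7b1 (0.08385), Cyp2s1 (0.794), Rdh10 (0.5571) and Gstk1 (0.5094), as did Ugt2b34 (1.071) and Gstt1 (1.809), which had not passed. For EpCAM-low against Lgr5-negative cells 11 of 37 did so: Gstm5, Gstm2, Adh5, Cyp2j6, Gstt3, Rdh14, Cyp4f13, Aldh18a1, Aldh1a7 (-0.1354), Gstk1 (-0.1413) and Aldh1l1 (-0.1807), besides Cyp2s1 (-1.694), Rdh10 (-1.462) and Rdh11 (-1.633), which had not passed. The cause was not tested. Of 342 single-gene values, 134 passed; edgeR lost 16 of these calls, a pseudocount of 8 lost 1 and total-read scaling 29, beside 14 values of changed sign, and the fits without 1 library lost 227 calls in all. Low counts limit Cyp11a1, Rdh16 and Cyp2a5, which were not tested once a library of their high group was left out.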
